A study of Mus musculus with 12 samples.

Results

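Bulk RNA-sequencing of the post-stroke brain was searched for the mRNAs that mark T cells and cytotoxic lymphocytes. The members were 10 genes given by name: the CD3 chains *Cd3e*, *Cd3d* and *Cd3g*, the coreceptors *Cd4* and *Cd8a*, the adhesion receptor *Cd2*, the kinase *Lck*, the T cell receptor constant genes *Trac* and *Trbc2*, and the cytotoxic granule gene *Nkg7*. All 10 were found by symbol among the 49315 genes of the count table. They were compared between 6 mice transplanted with WT BM cells, called WT brains or libraries, and 6 mice transplanted with *Tet2*-KO BM cells, all male and all at 14 d post-stroke. The recipients of both groups were CD45.1 Pep Boy mice with intact *Tet2*, irradiated with the head shielded and later subjected to middle cerebral artery occlusion, which blocks blood flow to part of a hemisphere. The graft of the *Tet2*-KO group held 10% CD45.2 *Tet2*-/- cells, and that of the WT group held 10% CD45.2 *Tet2*+/+ cells. In both groups the other 90% were CD45.1 *Tet2*+/+ cells, so most transplanted cells and all brain-resident cells kept *Tet2* in either group. The sample labels call the tissue brain and give no cell sorting. Their treatment entry reads the same for all 12 mice, so the groups came from the titles and genotype entries.

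A T cell recognises antigen through a receptor whose α and β chains end in constant regions encoded by *Trac* and by *Trbc1* or *Trbc2*. The receptor carries no signalling domain of its own and is assembled with the CD3γ, CD3δ and CD3ε chains, which hold the tyrosine motifs that *Lck* phosphorylates. CD4 and CD8 bind the class of MHC molecule that presents the antigen and bring *Lck* to the complex. *Cd2* strengthens the contact between the cells, and *Nkg7* is found on the granules of CD8+ T cells and natural killer (NK) cells. T cells are sparse in the healthy brain and enter it after stroke. Some of these genes are not private to T cells: *Cd4* is also known from macrophages and other myeloid cells, *Lck* from some neurons, and transcripts of the β chain constant region from neurons.

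The 3 CD3 genes lie together on chromosome 9 (GRCm38, the mm10 build), *Cd3g* on the minus strand at chr9:44969572-44980431, *Cd3d* on the plus strand at chr9:44981786-44987339 and *Cd3e* on the minus strand at chr9:44998740-45009627. The starts of *Cd3g* and *Cd3d* are 1355 bases apart and point away from each other, and the whole cluster spans 40056 bases. Their promoters are shown because these neighbouring genes were measured side by side, and that of *Lck* because it was the single member whose groups did not overlap. RefSeq entries (GRCm38.p6) existed for 6 of the 10 members, with 250 bases before and 50 bases after the transcription start. *Lck*, on the minus strand of chromosome 4, had a pair of entries, and the upstream one is shown. Capitals mark matches on either strand to 5 short motifs, which do not overlap each other here. They are TGTGGT for RUNX factors, AGGAAG for ETS factors, AGATAA for GATA factors, CTTTGA for factors of the TCF and LEF family, and the palindrome CAGCTG for factors that bind an E-box.
Cd3g, chr9:44980382-44980681 (− strand): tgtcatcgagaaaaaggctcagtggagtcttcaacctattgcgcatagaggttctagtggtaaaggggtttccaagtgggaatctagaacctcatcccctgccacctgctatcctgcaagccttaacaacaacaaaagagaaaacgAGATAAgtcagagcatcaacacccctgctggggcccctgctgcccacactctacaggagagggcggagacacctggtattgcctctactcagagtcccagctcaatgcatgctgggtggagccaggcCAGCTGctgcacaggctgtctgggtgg
Cd3d, chr9:44981536-44981835 (+ strand): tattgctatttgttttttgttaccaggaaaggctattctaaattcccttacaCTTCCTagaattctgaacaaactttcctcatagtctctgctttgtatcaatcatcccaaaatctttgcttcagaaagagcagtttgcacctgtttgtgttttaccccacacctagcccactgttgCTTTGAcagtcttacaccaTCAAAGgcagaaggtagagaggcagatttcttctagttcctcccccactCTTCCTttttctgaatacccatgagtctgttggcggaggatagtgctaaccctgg
Cd3e, chr9:45009562-45009861 (− strand): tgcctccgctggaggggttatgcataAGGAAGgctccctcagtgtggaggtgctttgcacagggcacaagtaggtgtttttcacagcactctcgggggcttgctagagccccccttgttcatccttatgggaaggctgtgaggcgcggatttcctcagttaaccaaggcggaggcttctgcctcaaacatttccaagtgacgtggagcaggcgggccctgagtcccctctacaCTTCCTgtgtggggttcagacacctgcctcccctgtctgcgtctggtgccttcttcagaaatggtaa
Lck, chr4:129573592-129573891 (− strand): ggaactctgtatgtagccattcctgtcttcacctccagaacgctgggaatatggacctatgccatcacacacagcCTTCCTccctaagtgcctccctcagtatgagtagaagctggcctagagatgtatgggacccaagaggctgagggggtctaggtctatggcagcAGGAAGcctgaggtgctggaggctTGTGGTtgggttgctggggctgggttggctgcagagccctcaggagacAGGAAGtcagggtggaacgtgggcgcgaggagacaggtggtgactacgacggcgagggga
The *Cd3e* window held 2 ETS matches, the *Cd3d* window 2 ETS and 2 TCF/LEF matches, the *Cd3g* window 1 GATA and 1 E-box match, and the upstream *Lck* window 1 RUNX and 3 ETS matches. No motif was present in all 4 windows. Among 32817 promoters of the same length, 35.4% held the ETS letters, 16.8% the RUNX letters, 16.3% the E-box letters, 16.0% the TCF/LEF letters and 11.2% the GATA letters, so such matches are common.

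*Trbc2*, on the plus strand at chr6:41546730-41548352, has a near copy in *Trbc1*. Their first exons differ at 1 base of 375 (99.7% identity), shown in capitals within the 60 bases around it.
Trbc1, chr6:41538447-41538506 (+ strand): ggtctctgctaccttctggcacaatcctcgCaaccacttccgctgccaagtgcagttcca
Trbc2, chr6:41546959-41547018 (+ strand): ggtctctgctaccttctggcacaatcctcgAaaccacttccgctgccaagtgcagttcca
Of the 543 stretches of 150 bases in the *Trbc2* transcript, the length of a read here, 110 (20.3%) also occur in *Trbc1*. The authors counted reads only where they mapped to 1 place, so reads lying wholly in such stretches may have been lost unless their mate placed them. How many were lost was not measured, and the *Trbc2* count is uncertain in this respect. *Trac* has no such partner and lies on the plus strand at chr14:54220521-54224206. The remaining members are *Cd4* (chr6:124864692-124888221, minus strand), *Cd8a* (chr6:71373427-71379173, plus), *Cd2* (chr3:101275899-101287939, minus), *Lck* (chr4:129548344-129573641, minus) and *Nkg7* (chr7:43437073-43438249, plus). An exon of *Cd3e* overlaps the opposite-strand gene *Gm48719* by 135 bases and an exon of *Lck* overlaps *Mir8119* by 25 bases. *Gm48719* itself had 0 to 2 counts per library.

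Total counts lay between 12000261 and 15340787 in the WT libraries and between 12625047 and 21049763 in the *Tet2*-KO libraries. The *Tet2* level was 132 ± 7.6 CPM in the WT group and 131 ± 7.79 CPM in the other (SD, n = 6 each), which does not check the labels, since most cells of the tissue keep the gene. The 8 neuronal genes used to check the tissue were all present and summed to between 3161 and 5572 CPM. The libraries of a group were not alike. WT replicate 2 differed from the other WT libraries with a chi-square per degree of freedom of 13.1 to 20.1 over all genes, against 2.0 to 4.5 among the other 5, and pairs of *Tet2*-KO libraries ranged from 2.96 to 27.8. CPM are counts relative to the library size after TMM scaling, a normalization that trims extreme genes.

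All 10 genes were low in whole-brain RNA. Together they gave between 251 and 404 counts per WT library and between 184 and 334 per *Tet2*-KO library, or 0.00109% to 0.00295% of all counts. The highest single count was 108, for *Cd4*. Compared per kilobase of exon, the mean level in the WT brains was highest for *Trbc2* (5.12 ± 0.691 CPM per kb), then *Trac* (2.84 ± 0.927), *Cd4* (1.42 ± 0.268), *Lck* (1.29 ± 0.191), *Nkg7* (1.09 ± 0.776) and *Cd2* (0.548 ± 0.3). *Cd8a* and *Cd3e* followed at 0.38 ± 0.154 and 0.38 ± 0.1 CPM per kb, then *Cd3d* (0.33 ± 0.14) and *Cd3g* (0.235 ± 0.0856). All neighbours in that order overlapped in their ranges over the 6 WT libraries except *Trac* and *Cd4*. In the *Tet2*-KO brains the first 7 genes had the same order. There *Trbc2*, at 5.16 ± 1.03 CPM per kb, was separate from *Trac*, at 1.59 ± 0.45, and all other neighbours overlapped.

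The comparison asked whether T cell and cytotoxic lymphocyte mRNA differed between brains of mice with WT and *Tet2*-KO BM cells. No member passed the adjusted threshold of 0.05 in edgeR's quasi-likelihood test with Benjamini-Hochberg adjustment over 20290 genes, a threshold that 5 genes in all (0.0246%) passed, each of them lower with *Tet2*-KO cells. Of the 10 members, 6 passed the filter on low counts, and 5 of these (*Lck*, *Trac*, *Cd3e*, *Cd8a* and *Cd4*) had an unadjusted p below 0.05 with a lower level in the *Tet2*-KO group, against 12.2% of all genes tested in that direction. *Trbc2*, the other member tested, had nearly the same level in both groups. The filter asked for about 0.727 CPM in at least 6 libraries, which *Cd3e* met in 6 WT and 3 *Tet2*-KO libraries and *Cd8a* in 5 and 2, so these entered mainly through the group in which they were higher. *Cd3d*, *Cd3g*, *Cd2* and *Nkg7* did not pass it. With no filter all 10 could be fitted, 9 had a negative log2 fold change and 8 an unadjusted p below 0.05 in that direction, against 8.29% of 37685 genes, and none an adjusted p below 0.05 in edgeR, which 0.117% of these genes had. The median log2 fold change of the 10 was then -1.0, and that of all genes 0.0062. In bulk tissue, fewer T cells and less of these mRNAs per cell cannot be told apart. T cells were counted separately in the paper, by immunostaining of brain sections at the same time after stroke. It reports similar numbers of CD3+ cells in both groups. How those cell counts relate to the mRNA levels of the libraries was not tested.

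**Figure D1:**
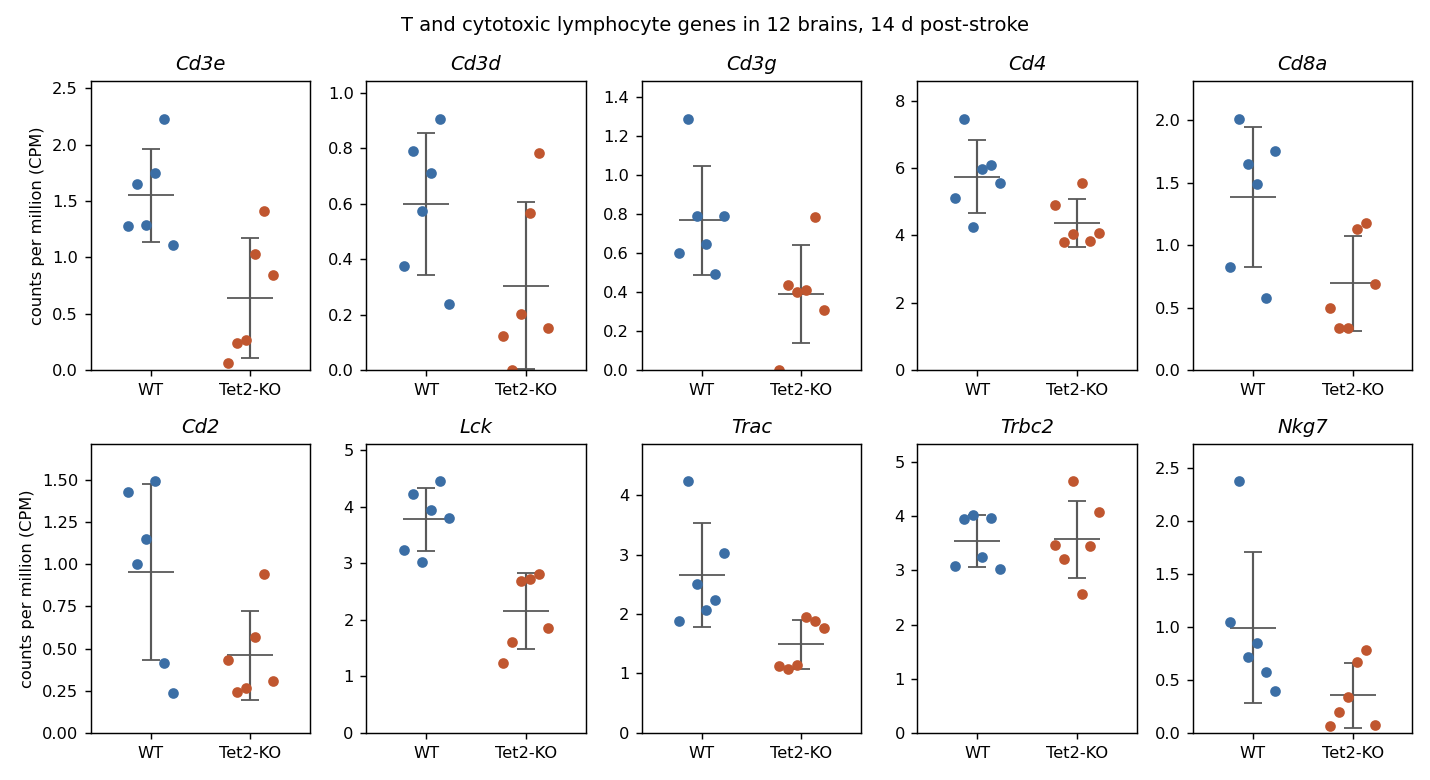
CPM of each of the 10 genes (y axis, from 0, its own scale in each panel) in the 6 WT and 6 *Tet2*-KO libraries. Points are libraries in replicate order from left to right, and bars show the mean and SD. The groups separate without overlap for *Lck*, and *Trbc2* lies at the same level in both.

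The CD3 chains were the members at the lowest level per kilobase, and all 3 had fewer counts in most *Tet2*-KO libraries. *Cd3e*, the signalling ε chain, had 17, 23, 18, 27, 27 and 14 counts in WT replicates 1 to 6 and 1, 5, 4, 20, 18 and 11 counts in *Tet2*-KO replicates 1 to 6. Its mean was 1.55 ± 0.41 CPM in WT brains and 0.644 ± 0.533 CPM in *Tet2*-KO brains (SD, n = 6 each). *Tet2*-KO replicate 5, at 1.41 CPM, was the single *Tet2*-KO library above the lowest WT library, at 1.11 CPM, and *Tet2*-KO replicates 1 to 3 lay at 0.269 CPM or below. The *Cd3e* level with *Tet2*-KO cells was estimated at 0.402 of that with WT cells (95% interval 0.211 to 0.763), a log2 fold change of -1.32 ± 0.432 (SE). The edgeR p was 0.0086 before and 0.128 after adjustment, and the exact permutation test over the 924 assignments of the libraries gave p = 0.013 (two-sided).

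*Cd3d*, the δ chain, had 5, 11, 8, 11, 11 and 3 counts in the WT libraries and 2, 0, 3, 11, 10 and 2 in the *Tet2*-KO libraries. *Cd3g*, the γ chain, had 8, 18, 11, 10, 6 and 10 counts in the WT libraries and 0, 9, 6, 8, 10 and 4 in the *Tet2*-KO libraries. On the CPM scale 4 of 6 *Tet2*-KO libraries lay below every WT library for *Cd3d* and 5 of 6 for *Cd3g*. A count of 0 allows up to 3 counts, or 0.146 CPM for *Cd3d* in *Tet2*-KO replicate 2 and 0.186 CPM for *Cd3g* in *Tet2*-KO replicate 1. With no filter the log2 fold change was -1.02 ± 0.525 for *Cd3d*, whose 95% interval of -2.11 to 0.082 includes no change, and -0.99 ± 0.391 for *Cd3g*. The exact permutation p was 0.0693 for *Cd3d* and 0.0216 for *Cd3g*.

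Added over the 3 chains, the brains held 30, 52, 37, 48, 44 and 27 CD3 counts with WT BM and 3, 14, 13, 39, 38 and 17 with *Tet2*-KO cells, 238 against 124 in all. Scaled to library size this was 2.14 to 3.73 CPM in the WT libraries and 0.186 to 2.98 CPM in the *Tet2*-KO libraries. Of the *Tet2*-KO libraries, replicate 5 lay within the WT range at 2.98 CPM and replicate 4 just below it at 2.01 CPM. The other 4 lay at 1.31 CPM or less, and the values were spread without a clear split. CD3 mRNA was therefore present in every brain, with a spread among the *Tet2*-KO mice that was wider than among the WT mice (SD 1.01 and 0.679 CPM).

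**Figure D2:**
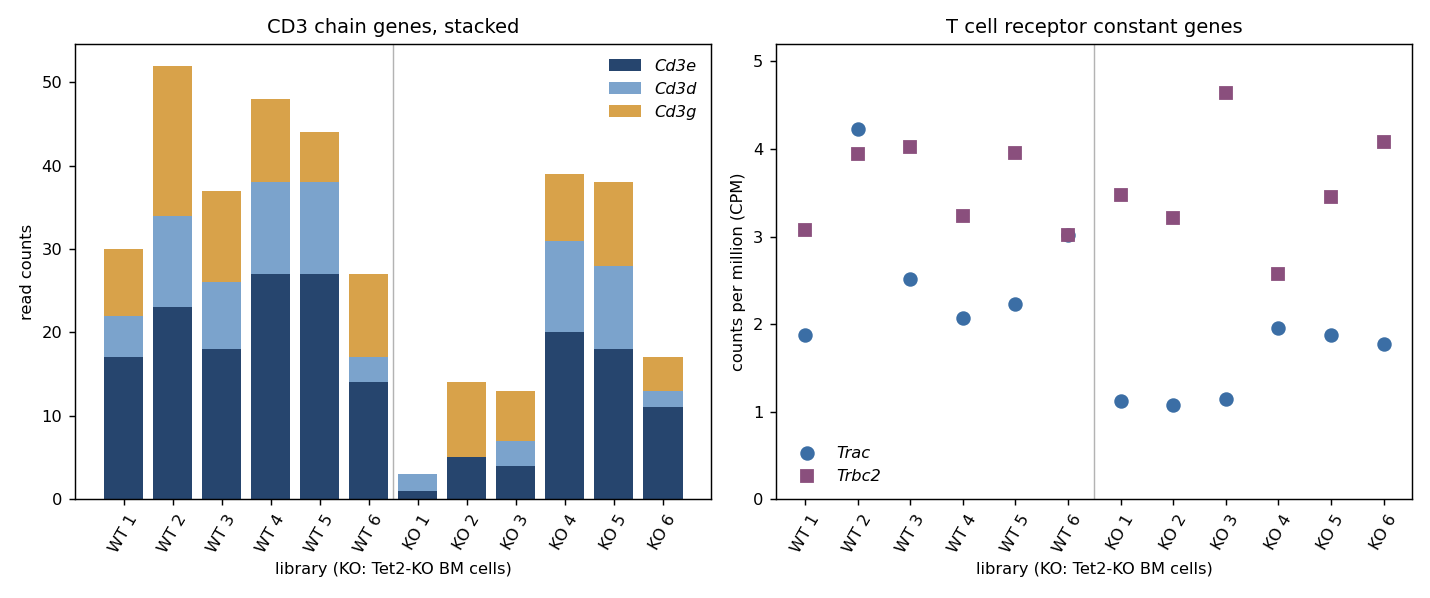
Left, read counts of *Cd3e*, *Cd3d* and *Cd3g* stacked for each of the 12 libraries (y axis from 0), with *Tet2*-KO replicate 1 at 3 counts and WT replicate 2 at 52. Right, CPM of *Trac* (circles) and *Trbc2* (squares) in the same libraries, where *Trac* lies lower in most *Tet2*-KO libraries and *Trbc2* does not, and in WT replicate 6 both points coincide.

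The constant genes of the receptor's α and β chains gave unlike values, a difference between them that was not itself tested. *Trac* had 25, 59, 35, 32, 27 and 38 counts in the WT libraries and 18, 22, 17, 38, 24 and 23 in the *Tet2*-KO libraries, a mean of 2.66 ± 0.867 and 1.49 ± 0.421 CPM. All WT libraries but the lowest, at 1.88 CPM, lay above every *Tet2*-KO library, whose highest was at 1.95 CPM. The *Trac* level with *Tet2*-KO cells was 0.557 of that with WT cells (95% interval 0.396 to 0.783), a log2 fold change of -0.84 ± 0.231, with an edgeR p of 0.00227 (adjusted 0.115) and an exact permutation p of 0.00649. *Trbc2* had 41, 55, 56, 50, 48 and 38 counts in the WT libraries and 56, 66, 69, 50, 44 and 53 in the *Tet2*-KO libraries. Its mean was 3.54 ± 0.478 CPM in WT brains and 3.57 ± 0.715 CPM in *Tet2*-KO brains, and the groups overlapped fully. Its log2 fold change was -0.00040 ± 0.141, with a 95% interval of the ratio of 0.812 to 1.23, an interval that does not reach the estimate for *Trac*. Its sign turned with the scaling, to 0.034 under upper quartile scaling.

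Because the 2 chains pair in the αβ receptor, their ratio was also read within each library. There were 0.932 to 1.78 *Trbc2* counts for each *Trac* count in the WT libraries (median 1.58) and 1.32 to 4.06 in the *Tet2*-KO libraries (median 2.65). The ratio was highest, at 3.0 or more, in *Tet2*-KO replicates 1, 2 and 3, the same libraries that had the lowest CD3 CPM. In *Tet2*-KO replicates 4 and 5, with the most CD3 counts of their group, it was 1.32 and 1.83, near the WT range. The difference in ratio between the groups was not tested. The near copy *Trbc1* had 6 to 15 counts per WT library and 4 to 10 per *Tet2*-KO library, 60 and 42 in all, and on the CPM scale 4 of 6 *Tet2*-KO libraries lay below every WT library. With no filter its log2 fold change was -0.73 (95% interval -1.37 to -0.085), with an edgeR p of 0.0278 (adjusted 0.264) and an exact permutation p of 0.0238. *Trbc1* was singled out as the near copy after its values were seen, and its difference from *Trbc2* was not tested.

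The coreceptor of cytotoxic T cells, *Cd8a*, had 11, 28, 23, 23, 7 and 22 counts in the WT libraries and 8, 7, 5, 22, 15 and 9 in the *Tet2*-KO libraries. The mean was 1.38 ± 0.559 CPM in WT brains and 0.695 ± 0.379 CPM in *Tet2*-KO brains. WT replicates 1 and 5 lay within the *Tet2*-KO range, and the other 4 WT libraries lay above every *Tet2*-KO library. The *Cd8a* ratio was 0.494 (95% interval 0.292 to 0.837), a log2 fold change of -1.02 ± 0.357, with an edgeR p of 0.012 (adjusted 0.137) and an exact permutation p of 0.0411.

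The coreceptor of helper T cells, *Cd4*, was the member with the smallest estimate among those with an unadjusted p below 0.05. Its counts were 68, 104, 59, 92, 74 and 70 in the WT libraries and 79, 78, 60, 108, 49 and 53 in the *Tet2*-KO libraries, or 5.74 ± 1.08 and 4.37 ± 0.706 CPM. The raw counts overlapped almost wholly, and after scaling 4 of 6 *Tet2*-KO libraries lay below every WT library. The *Cd4* ratio was 0.764 (95% interval 0.621 to 0.941), a log2 fold change of -0.39 ± 0.141, with an edgeR p of 0.0146 (adjusted 0.145) and an exact permutation p of 0.0238. There were 2.57 to 10.6 *Cd4* counts for each *Cd8a* count in the WT libraries (median 3.85) and 3.27 to 12 in the *Tet2*-KO libraries (median 7.88). These ranges overlapped almost wholly, with the WT maximum in replicate 5. The difference in this ratio between the groups was not tested.

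*Lck*, the kinase that starts signalling from the receptor, had the smallest p of the 10 genes. Its counts were 43, 59, 42, 61, 54 and 48 in the WT libraries and 20, 33, 40, 53, 36 and 24 in the *Tet2*-KO libraries. On the CPM scale every WT library, from 3.02 to 4.45, lay above every *Tet2*-KO library, from 1.24 to 2.82, with a gap of 0.192 CPM between the nearest. Among all genes tested, 0.641% had groups that did not overlap in that direction. Without WT replicate 1 the *Trac* groups did not overlap either (0.769% of genes tested), and without *Tet2*-KO replicate 5 those of *Cd3e* and *Cd3g* did not (4.78%). *Cd3g* had failed the filter on low counts and is not among the genes of that share. The mean was 3.78 ± 0.56 CPM in WT brains and 2.15 ± 0.678 CPM in *Tet2*-KO brains, a ratio of 0.568 (95% interval 0.427 to 0.754) and a log2 fold change of -0.82 ± 0.193. The edgeR p was 0.000681 and 0.11 after adjustment, and the exact permutation p was 0.00216, the smallest that 6 against 6 libraries allow, or 0.279 after adjustment over all genes with a count.

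*Cd2*, which binds a ligand on the partner cell, had 19, 14, 16, 23, 5 and 3 counts in the WT libraries and 7, 5, 4, 11, 12 and 4 in the *Tet2*-KO libraries. The WT libraries split into 4 at 1.0 CPM or above and 2 lower ones, replicate 5 at 0.412 CPM, within the *Tet2*-KO range of 0.243 to 0.941 CPM, and replicate 6 at 0.238 CPM, below it. Its mean was 0.954 ± 0.522 CPM in WT brains and 0.46 ± 0.265 CPM in *Tet2*-KO brains. With no filter the log2 fold change was -1.1 ± 0.391 (edgeR p = 0.00982), while the exact permutation p was 0.108, so the *Cd2* call at an unadjusted 0.05 depended on the test.

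*Nkg7*, the cytotoxic granule gene, had 14, 33, 10, 13, 7 and 5 counts in the WT libraries and 1, 4, 5, 13, 10 and 1 in the *Tet2*-KO libraries. WT replicate 2, at 2.37 CPM, stood far above the other WT libraries, at 0.397 to 1.05 CPM, and 4 of 6 *Tet2*-KO libraries lay below every WT library. The mean was 0.992 ± 0.71 CPM in WT brains and 0.354 ± 0.307 CPM in *Tet2*-KO brains. With no filter the log2 fold change was -1.48 ± 0.541 (95% interval -2.65 to -0.32), with an edgeR p of 0.0159 and an exact permutation p of 0.0303. Without WT replicate 2 the WT mean was 0.717 ± 0.25 CPM and the exact permutation p 0.0649. This was the estimate furthest from 0 among the 10 genes and also the one with the widest interval.

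**Figure D3:**
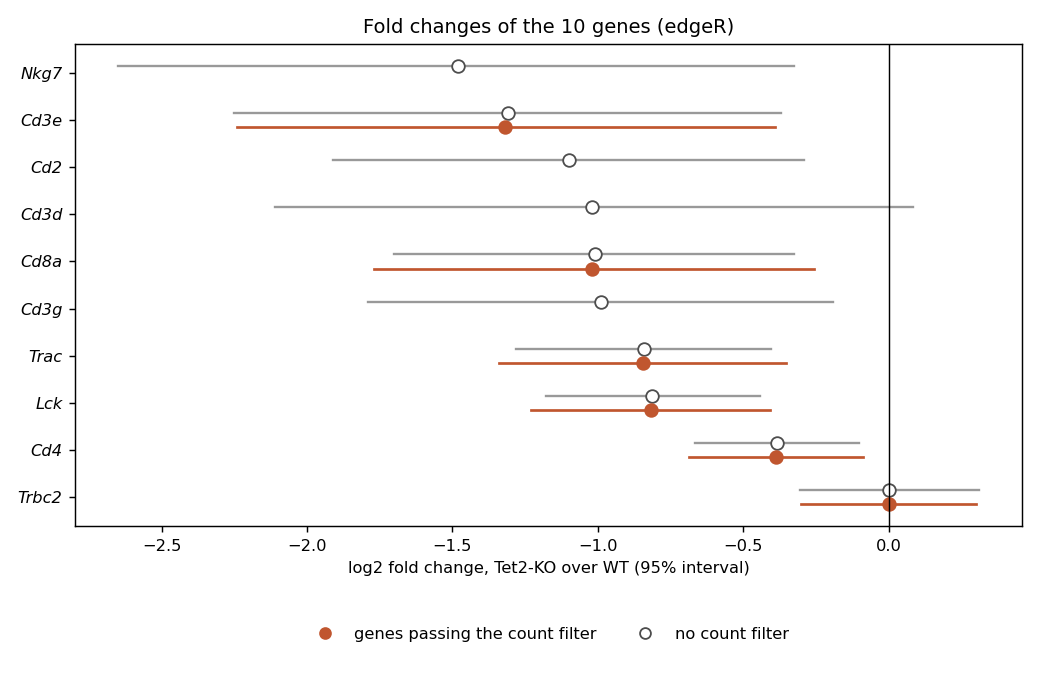
Log2 fold change (x axis, *Tet2*-KO over WT) with its 95% interval for each of the 10 genes in edgeR, filled for the 6 genes that passed the filter on low counts and open for the fit with no filter. The intervals of *Cd3d* and *Trbc2* include 0, and the other 8 lie below it.

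Over all 10 genes the exact permutation test gave an unadjusted p below 0.05 for 7 (*Lck*, *Trac*, *Cd3e*, *Cd3g*, *Cd4*, *Nkg7* and *Cd8a*), all lower with *Tet2*-KO cells, against 7.7% of 37685 genes, and none passed after adjustment. The *Tet2*-KO libraries differed among themselves in the same way for most members. Replicate 5 was the highest *Tet2*-KO library for 7 of the 10 genes, replicate 4 for 2 and replicate 3 for *Trbc2*. Among the WT libraries replicate 2 was the highest for 5 of the 10 genes. The CPM summed over the 10 genes were 18.9 to 29.0 in the WT libraries and 11.1 to 17.9 in the *Tet2*-KO libraries. These sums did not overlap, and they include *Cd4*, *Trbc2* and *Lck*, which are also known from other cells.

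Leaving out *Tet2*-KO replicate 5 changed the calls. Without it *Lck*, *Trac*, *Cd3e* and *Cd8a* passed the adjusted threshold in edgeR, with adjusted p of 0.0166, 0.0306, 0.0259 and 0.0489 and log2 fold changes of -0.90, -0.91, -1.65 and -1.19, among 1498 lower genes (7.3% of those tested). With DESeq2's Wald test on all 12 libraries 2 members passed, *Lck* (adjusted p = 0.00458) and *Trac* (adjusted p = 0.0168), among 939 lower genes (5.13%). In that test *Cd4* had an adjusted p of 0.0734 and *Cd3e* and *Cd8a* were given none, since its own filter removed them. With limma-voom and quality weights, which weigh each library by its fit, *Lck*, *Trac*, *Cd3e* and *Cd8a* passed, as did 6.38% of all genes tested in that direction. Without WT replicate 2, the edgeR log2 fold changes of *Trac* and *Cd4* were nearest to 0, at -0.66 and -0.30, and the exact permutation test gave a p below 0.05 for 4 of the 10 members in place of 7, against 5.62% of 37685 genes in that direction. Those lost in the exact test were *Cd3g* (p = 0.0541), *Nkg7* (p = 0.0649) and *Cd8a* (p = 0.0801). Without *Tet2*-KO replicate 5 the same exact test gave 8, with *Cd3d* added (p = 0.0195), against 9.26% of all genes. Across the 12 edgeR fits that each left out 1 library, the 5 members with an unadjusted p below 0.05 kept it in all 12.

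Other genes of the receptor complex and its nearby signalling were measured from a list of 28, of which 25 were in the table and 17 could be tested. Of these 13 had a negative log2 fold change, with a median of -0.74 beside 0.010 for all genes tested. An unadjusted p below 0.05 went with a lower level for 8 of them and with a higher level for none, against 12.2% and 10.8% of all genes tested. None passed the adjusted threshold in edgeR. Of the 17, 7 met the filter in more WT than *Tet2*-KO libraries and none in more *Tet2*-KO libraries. With no filter 20 of the 25 had a negative log2 fold change (median -0.80), and over the 10 with at least 10 counts in every library the median was -0.13. The 3 of the list at the highest level in these brains were *Rasgrp1*, an activator of Ras, *Fyn*, a kinase related to *Lck*, and *Fyb*, an adaptor. *Rasgrp1* was at 370 ± 65.9 CPM in WT brains and 448 ± 77.7 CPM in *Tet2*-KO brains, and *Fyn* at 79.1 ± 4.13 and 80.2 ± 6.28 CPM; both are known from neurons, and neither had an unadjusted p below 0.05. *Fyb* was at 49.4 ± 14 and 27.1 ± 13.8 CPM (log2 fold change -0.87, edgeR adjusted p = 0.171). Which cells of the tissue held *Fyb* was not tested, so its level cannot be read as that of T cells.

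A few listed genes were picked after their values were seen because they complete the complexes that the members form. *Cd247*, the ζ chain of the receptor, was at 1.71 ± 0.464 CPM in WT brains and 1.62 ± 0.579 CPM in *Tet2*-KO brains (log2 fold change -0.070, edgeR adjusted p = 0.896). *Zap70*, the kinase that binds the phosphorylated chains, was at 2.42 ± 0.388 and 2.43 ± 0.629 CPM. *Cd247* and *Zap70* thus had fold changes near that of *Trbc2*. *Cd8b1*, the partner chain of *Cd8a* and a gene of the T cell lineage list described next, had 49 counts over the WT libraries and 18 over the *Tet2*-KO libraries.

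Of 29 genes of T cell lineage and state, all in the table, 23 could be tested. Here 16 had an unadjusted p below 0.05 with a lower level and 2 with a higher level in the *Tet2*-KO group, against 12.2% and 10.8% of all genes tested. The median log2 fold change of the 23 was -0.76. Some of the 16 lay far above *Trac*, at 2.66 CPM in WT brains. *Ets1*, *Ikzf1* and *Il2rg*, picked for their level, were at 32.7, 30.3 and 11.9 CPM there. Which cells held the 16 genes was not tested, so their levels cannot be read as those of T cells. Of the 23, 10 met the filter in more WT than *Tet2*-KO libraries and none in more *Tet2*-KO libraries. With no filter 19 of 29 were lower and 2 higher at that p (median -0.75), against 8.29% of all genes lower. Over the 13 genes with at least 10 counts in every library 6 were lower and 2 higher at that p (median -0.35). The share of all genes at that p was not taken in that setting. The 2 with a higher level were *Satb1* (125 ± 13.9 and 143 ± 12.4 CPM) and *Bcl11b* (99.6 ± 13.1 and 115 ± 13.6 CPM), transcription factors of thymocytes that neurons are also known to express. The inhibitory receptor *Lag3*, also known from microglia, was at 68 ± 19.1 and 40.1 ± 21.6 CPM (adjusted p = 0.228). *Il7r*, the receptor for interleukin-7 on resting T cells, had the smallest adjusted p in edgeR among the 23 genes tested, 0.0752, and was singled out for it. It was at 4.15 ± 1.35 CPM in WT brains and 1.23 ± 0.653 CPM in *Tet2*-KO brains, and all 6 *Tet2*-KO libraries lay below every WT library. In the edgeR fit with no filter *Il7r* had an adjusted p of 0.0416 and *Icos*, which had failed the filter, one of 0.0371 (log2 fold change -1.63). Of all genes in that fit 0.117% passed. *Icos* had 98 counts over the WT and 37 over the *Tet2*-KO libraries, and was singled out after its values were seen.

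Genes of NK cells and cytotoxic effectors were mostly too low to test. Of 23, all in the table, 8 passed the filter on low counts. Of these, 5 met it in more WT than *Tet2*-KO libraries and none in more *Tet2*-KO libraries. With no filter 20 of the 23 had a negative log2 fold change and 3 a positive one (*Gzmk*, *Cd226* and *Crtam*), with a median of -0.89. An unadjusted p below 0.05 was seen for 9, all in the negative direction, against 8.29% of all genes with a count. Over the 3 with at least 10 counts in every library the median was -0.39. The highest were *Cd244a*, a receptor of NK and CD8+ T cells, at 4.16 ± 1.35 and 1.48 ± 0.816 CPM, *Ctsw*, a protease of cytotoxic cells, at 3.03 ± 0.475 and 2.07 ± 0.285 CPM, and *Cd160*, another receptor of these cells, at 2.32 ± 0.54 and 2.27 ± 0.212 CPM. *Cd244a* and *Ctsw* had an adjusted p of 0.11 each in edgeR, and *Cd160* one of 0.926. The killing molecules themselves gave a handful of counts in each library. Granzyme A (*Gzma*) had 18 counts over the 6 WT libraries and 11 over the 6 *Tet2*-KO libraries, granzyme B (*Gzmb*) 43 and 38, and perforin (*Prf1*) 46 and 26, and *Ifng* had 7 and 4. With no filter the log2 fold change of *Prf1* was -1.05 (95% interval -2.08 to -0.016), with an edgeR p of 0.0468 before adjustment and an exact permutation p of 0.0693. Granzyme M (*Gzmm*), the granzyme that passed the filter, was at 1.47 ± 0.383 CPM in WT brains and 1.13 ± 0.231 CPM in *Tet2*-KO brains (log2 fold change -0.38, edgeR adjusted p = 0.27). *Prf1* and *Gzmm* were singled out after their values were seen. The summed list lay at 20.0 to 31.2 CPM in the WT libraries and 8.18 to 22.6 CPM in the *Tet2*-KO libraries.

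The ligands that draw T cells into tissue were described from a list of 9, of which 6 could be tested and *Ccl21a* had no count. All 6 had a negative log2 fold change (median -1.11), 4 of them with an unadjusted p below 0.05, against 12.2% of all genes tested in that direction. *Vcam1*, the adhesion molecule on activated endothelium that lymphocytes bind, was at 54.5 ± 8.94 CPM in WT brains and 39.5 ± 14.6 CPM in *Tet2*-KO brains (adjusted p = 0.25 in edgeR). *Icam1*, another such molecule, was at 18.3 ± 4.3 and 8.56 ± 4.6 CPM, with all *Tet2*-KO libraries below every WT library (adjusted p = 0.124). *Cxcl16*, the ligand of the chemokine receptor CXCR6, was at 18.8 ± 6.36 and 8.72 ± 3.99 CPM (adjusted p = 0.123). No ligand passed the adjusted threshold in edgeR. With DESeq2's Wald test *Ccl5*, *Cxcl16*, *Icam1* and *Cxcl10* passed it, with adjusted p of 0.0215, 0.0286, 0.0302 and 0.0478. In that test 5.13% of genes passed in that direction, and *Vcam1* and *Cxcl9* did not pass (adjusted p = 0.185 and 0.249). *Ccl5*, *Cxcl10* and *Cxcl9* were named after their values were seen.

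Markers of other leukocytes had negative fold changes beside those of the T cell genes, and their part in the result was not tested. All 5 pan-leukocyte genes had negative log2 fold changes (median -0.96), and their summed CPM were 411 to 792 in the WT and 123 to 508 in the *Tet2*-KO libraries. *Laptm5*, *Ptprc* (CD45) and *Coro1a* had log2 fold changes of -0.76, -1.16 and -0.30. The 7 monocyte and macrophage genes all had an unadjusted p below 0.05 and a median of -1.78 (-1.0 over the 3 with at least 10 counts in every library), and their summed CPM were 467 to 1177 and 45.0 to 595. Of these *Lyz2*, *Cd68* and *Ms4a7* had log2 fold changes of -1.78, -0.99 and -1.62. For B cells 5 of 8 genes were tested (median -0.70, with *Ighm* -0.20, *Cd22* -1.23 and *Pax5* -0.70; sums 50.4 to 80.9 and 32.2 to 54.2 CPM), and the other 3 were too low to test. For dendritic cells all 6 were tested (median -1.01, or -0.12 over the 3 with at least 10 counts in every library, with *Itgax* -1.24, *Flt3* -0.12 and *Zbtb46* -0.036; sums 59.7 to 88.7 and 39.5 to 72.0 CPM).

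The neutrophil genes *S100a8* and *S100a9* were the listed genes that fell past the adjusted threshold in edgeR with the filter on low counts (log2 fold changes -2.16 and -2.84, adjusted p = 0.0364 for each). With 1 library left out in turn, *S100a8* kept this call in 3 of 12 fits and *S100a9* in 4 of 12, with adjusted p of up to 0.191 and 0.189. *Cxcr2*, also of that list, had -2.56 (adjusted p = 0.11), and the list summed to 7.22 to 21.1 CPM in WT brains and 1.77 to 6.2 CPM in *Tet2*-KO brains. Homeostatic microglia had a median of -0.21 over 8 genes, 1 of them with an unadjusted p below 0.05, and sums of 644 to 1162 and 319 to 841 CPM. *Cx3cr1* and *Sall1* had log2 fold changes of -0.34 and -0.17. Endothelial genes had a median of -0.14 (*Flt1* -0.018, *Slco1a4* 0.11 and *Cdh5* -0.37; sums 241 to 292 and 225 to 271 CPM). Neuronal genes lay the other way, all 8 with an unadjusted p below 0.05 (median 0.26, with *Snap25* 0.25, *Syt1* 0.28 and *Slc17a7* 0.39; sums 3161 to 4542 and 4158 to 5572 CPM). The 5 red blood cell genes had a median of 0.55 (*Alas2* 0.13, *Hbb-bs* 0.55 and *Hba-a1* 0.50, with sums of 21.2 to 31.5 and 27.4 to 41.2 CPM). Whether these low levels reflect blood left in the tissue was not tested.

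Relative to library size, *Tet2*-KO replicates 4 and 5 held the 2 highest sums of their group for the 10 members and for the pan-leukocyte, monocyte and macrophage, B cell, microglial, NK and recruitment ligand lists. They also held them for the T lineage list and for the endothelial list, the latter at 271 and 263 CPM. For monocytes and macrophages they lay at 302 and 595 CPM, while the other 4 *Tet2*-KO libraries lay at 154 CPM or below. WT replicate 2 had the highest sum of its group for the members (29.0 CPM), the pan-leukocyte genes (792 CPM) and the monocyte and macrophage genes (1177 CPM), and the lowest for the neuronal genes (3161 CPM). *Tet2*-KO replicates 4 and 5 were likewise the lowest of their group for the neuronal genes, at 4158 and 4308 CPM. The 2 highest sums of the *Tet2*-KO group were not both in replicates 4 and 5 for dendritic cells (replicates 2 and 5), neutrophils (replicates 1 and 5) and the receptor signalling list (replicates 3 and 6). Nor were they for red blood cells (replicates 1 and 3) and neurons (replicates 1 and 6).

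**Figure D4:**
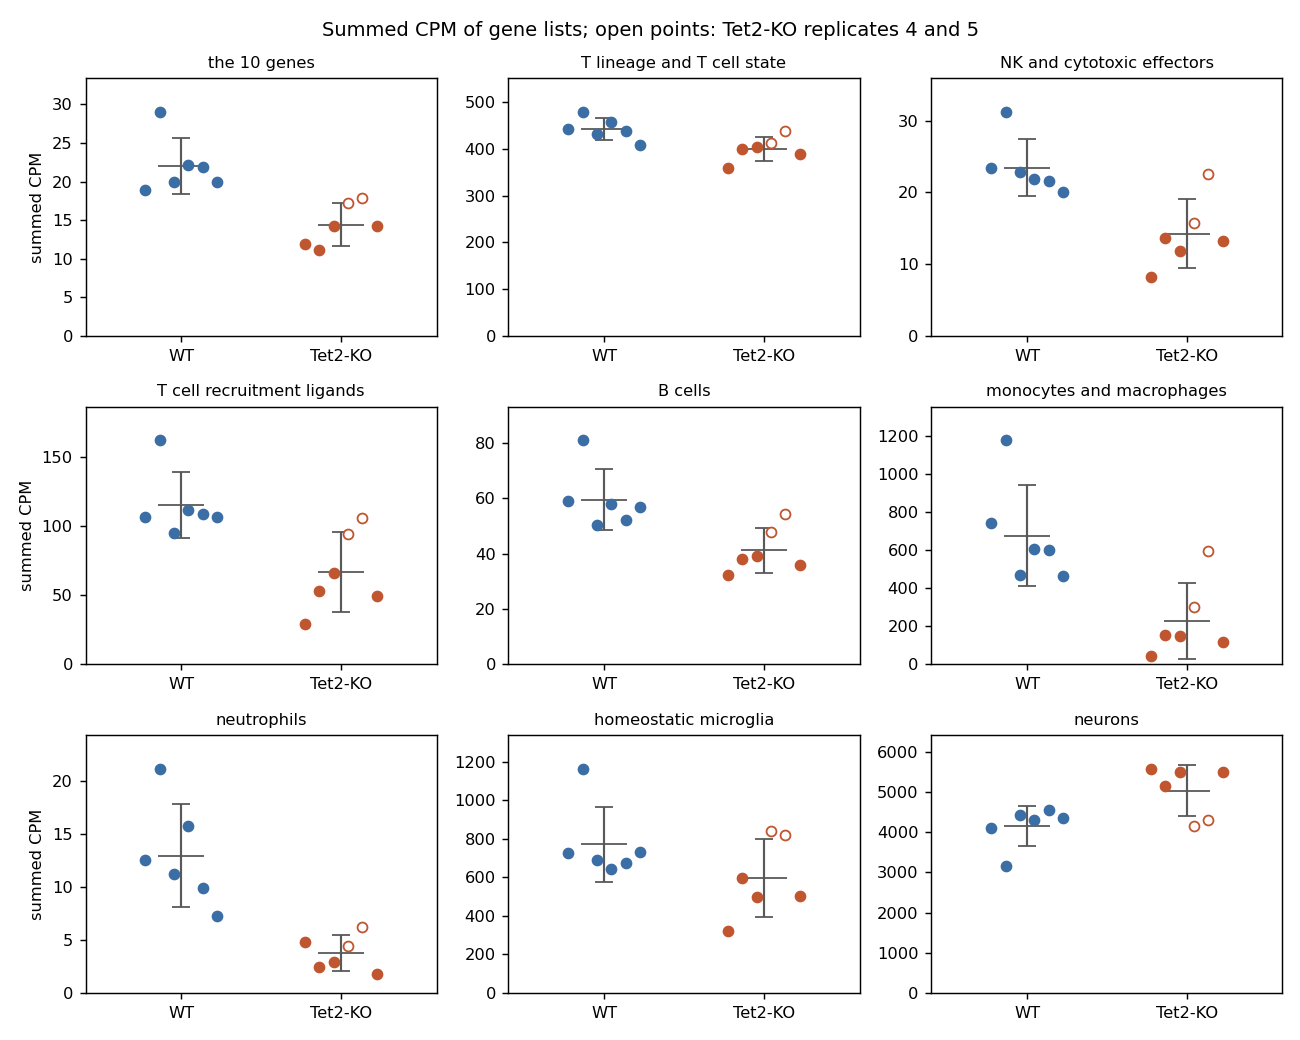
CPM summed over each gene list (y axis, from 0, its own scale in each panel) in the 6 WT and 6 *Tet2*-KO libraries, with the mean and SD. Open points are *Tet2*-KO replicates 4 and 5, at 17.2 and 17.9 CPM the highest of their group for the 10 genes and at 302 and 595 CPM for monocytes and macrophages.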

How the data were processed

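Total RNA of 12 mouse brains was depleted of ribosomal RNA and sequenced in paired reads of 150 bases. The authors trimmed the reads with Trimmomatic 0.36, aligned them with STAR 2.5.2b to mm10 and deposited whole-number read counts per gene from featureCounts (Subread 1.5.2), using uniquely mapped reads in exons, without normalization (tools and build per the submitters' processing notes). The strand setting and the annotation release are not given in the sources used here. Symbols were found for 48970 of 49315 identifiers, and coordinates and exon lengths were taken from GENCODE M21 (GRCm38).

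From the deposited counts, genes were kept by filterByExpr, scaled by TMM and compared between the groups in edgeR 4.0.16 under R 4.3.3 (quasi-likelihood F test, robust, all 12 libraries, no covariate) with Benjamini-Hochberg adjustment over 20290 genes. Standard errors (SE) were derived from the log2 fold change and F. The study's own test, the DESeq2 Wald test (1.42.0), and limma-voom with quality weights (3.58.1) were alternatives, with other scalings, filters, a replicate block and each library left out. The exact two-sided permutation test used the mean of log2(CPM + 0.1) and was adjusted over 37685 genes with a count. On simulated counts with 200 changed genes (20097 genes kept), edgeR recovered 88.5% with 4.84% false calls. DESeq2 recovered 91% with 10.8% false calls and limma-voom 87.5% with 6.42%. The simulated libraries of a group were drawn alike, without outlying ones, and the changed genes were drawn from genes of all levels. These rates therefore do not give the power for the members.

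Libraries of 12000261 to 21049763 counts leave several members at under 10 counts, where counting error alone is large, and intervals and floors cover counting error only where they come from single libraries. The members and all lists were chosen with earlier results of these data known. Named from the other lists were the 3 genes with the highest mean CPM of each and any past the adjusted threshold, with exceptions stated where they occur; the single values of 1 gene that the rule names are not reported here. Same-numbered libraries of both groups did not deviate together (correlations of -0.169 to 0.229), so the numbers were not taken as pairs. Protein sequences were not used here.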

Additional observations from a re-analysis of the deposited data

Results flagged for a closer look

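The *Nkg7* level in WT replicate 2, 2.37 CPM, lay far from the other 5 WT libraries, the nearest of which was at 1.05 CPM. The gap was 0.667 of the range of the group, above Dixon's 95% critical value for 6 samples. This was the single such value among 20 groups of 6 libraries (10 genes in either group), and chance alone gives about 1 in 20. The same library had the highest *Cd3g*, *Cd4*, *Cd8a* and *Trac* of the WT group.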

How the results depend on the processing

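The number of genes past the adjusted threshold, 5 in edgeR, was 1489 with DESeq2, 1863 with limma-voom, 44 with no filter, and 0 both with at least 10 counts in every library and with the replicate block. With 1 library left out in turn it ranged from 0 to 2257, the highest without *Tet2*-KO replicate 5. The number of members past it, 0 in edgeR, was 2 with DESeq2, 4 with limma-voom and 0 to 4 with 1 library left out. Members with an unadjusted p below 0.05 numbered 8 with no filter (of 10) and 3 with at least 10 counts in every library, where 4 could be tested. Genes of the other lists numbered 38 there in place of 72, since fewer genes were tested. The share of all genes at that p was not taken with at least 10 counts in every library, so these counts have no background. In that setting the medians of the receptor signalling, T lineage and dendritic lists were -0.13, -0.35 and -0.12. Members whose groups did not overlap numbered 1 to 3 with 1 library left out, 2 when WT replicate 1 and 3 when *Tet2*-KO replicate 5 was dropped. Of genes tested, 0.769% and 4.78% did not overlap in that direction there. *Cd3g*, a member counted without *Tet2*-KO replicate 5, had failed the filter and is not among the genes of that share. In the exact permutation test, leaving out WT replicate 2 (an alternative chosen after seeing the data) gave 4 members in place of 7, and leaving out *Tet2*-KO replicate 5 gave 8. The sign of *Trbc2* turned with limma-voom (0.0075), upper quartile scaling (0.034) and no filter (0.0028), and ranged from -0.089 to 0.080 with 1 library left out. The cause of these differences was not tested. Blocking by replicate number, which does not pair these mice, changed no other call for a member. The log2 fold changes of *Lck*, *Trac*, *Cd3e*, *Cd8a* and *Cd4* were negative under every alternative in which each was tested (*Cd3e* and *Cd8a* were not with at least 10 counts in every library). Depth limits *Cd3d*, *Cd3g*, *Cd2* and *Nkg7*, with 3 to 33 counts per WT library.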
